A study of Drosophila melanogaster with 2 samples.

Results

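The regions described here are the CG15336-eGFP peaks that lay at the start of a noncoding gene and at no protein-coding start. The tagged protein is the product of CG15336, a fly gene that has only its annotation number as a name. Chromatin from whole prepupae aged 2 days that carried a transgene for CG15336 fused to eGFP was precipitated with an anti-GFP antibody and sequenced. The series holds 1 group with 2 biological replicates, with no second genotype, treatment or time, and no control library was analysed here. The animals were profiled whole, so the cells that contributed each peak are not known, and the promoter of the transgene is not given in the sources used here. A peak was kept when its summit lay within 500 bp of a transcript start of a gene that is not protein-coding and over 500 bp from every protein-coding transcript start. Of the 9295 peaks on the chromosome arms in the authors' conservative list, 284 met this rule (3.06%, Wilson 95% interval 2.72 to 3.43). The rule used positions only and no measured level. In the replicate lists it kept 203 of 6678 peaks of replicate 1 and 260 of 8213 peaks of replicate 2, or 3.10% ± 0.0890 (SD, n = 2). The peaks are set beside the 2936 peaks within 500 bp of a protein-coding start and the 6075 peaks over 500 bp from every start. Peaks are not replicates and 2 libraries are too few for an exact test, so class differences are given as values with intervals and were not tested. Intervals cover counting error only.

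Noncoding genes are of several kinds. Long noncoding RNAs (lncRNAs) are transcribed by RNA polymerase II and are often named in the fly only by a CR number, and antisense RNAs are transcribed from the strand opposite to a coding gene. tRNA genes are short, are transcribed by RNA polymerase III and carry their promoter elements inside the gene. MicroRNA hairpins and most small nucleolar RNAs (snoRNAs) are cut out of longer transcripts, so their annotated start is the start of the mature or hairpin RNA and not of transcription. Small nuclear RNAs (snRNAs) of the spliceosome and 7SK have compact promoters of their own.

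The summit sequences of the 6 highest of these peaks that were called in both replicates, on the arms from which sequence is shown, are printed first so that the letters at the strongest sites can be read beside the GC values given below. The peaks ranked 2 and 3 among the 284 by signal, at lncRNA:CR44339 and lncRNA:CR44651, lie on an arm from which no sequence is shown, and their values are given below. Each runs 50 bp to each side of the summit, on the plus strand of Release 6 (dm6), and capitals mark every run of at least 8 bases made only of A and T. The bases in such runs numbered from 9, at lncRNA:CR31044 and lncRNA:CR44091, to 46 at lncRNA:CR46036. The windows are chr3R:29214392-29214492 for lncRNA:CR31044, chrX:12752300-12752400 for lncRNA:CR44619 and chr3L:19560770-19560870 for lncRNA:CR44676. They are chr3R:17700531-17700631 for lncRNA:CR46036, chr3R:31680912-31681012 for lncRNA:CR44091 and chrX:3546284-3546384 for lncRNA:CR34335.
lncRNA:CR31044: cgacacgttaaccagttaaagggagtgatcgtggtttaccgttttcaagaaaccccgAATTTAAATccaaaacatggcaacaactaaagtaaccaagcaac
lncRNA:CR44619: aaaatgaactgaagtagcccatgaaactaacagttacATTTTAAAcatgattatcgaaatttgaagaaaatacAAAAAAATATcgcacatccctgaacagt
lncRNA:CR44676: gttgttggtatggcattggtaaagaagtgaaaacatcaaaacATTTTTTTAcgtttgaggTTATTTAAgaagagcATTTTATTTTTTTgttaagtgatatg
lncRNA:CR46036: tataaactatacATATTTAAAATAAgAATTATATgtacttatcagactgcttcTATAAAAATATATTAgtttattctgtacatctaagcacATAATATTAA
lncRNA:CR44091: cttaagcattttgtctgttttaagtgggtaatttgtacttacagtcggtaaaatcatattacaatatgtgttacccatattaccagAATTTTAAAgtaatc
lncRNA:CR34335: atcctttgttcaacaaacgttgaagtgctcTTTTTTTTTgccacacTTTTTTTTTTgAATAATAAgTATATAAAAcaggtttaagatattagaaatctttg

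1 window each is shown for the small-RNA types, as examples. Capitals again mark A/T runs of at least 8 bases. The highest microRNA peak, chrX:12665587-12665687, and the highest tRNA peak, chrX:3427692-3427792, hold such runs. The windows at the snRNA 7SKa, chr3R:7474630-7474730, and at the snoRNA Psi18S-525a, chr2L:20417865-20417965, hold none. The 7SKa window was chosen after its values were seen, and the snoRNA window is that of the highest snoRNA peak on the arms used for sequence. Such runs were in 6 of the 9 microRNA, 15 of the 22 tRNA, 1 of the 3 snRNA and 0 of the 4 snoRNA windows, and in 166 of the 208 lncRNA windows.
mir-9377: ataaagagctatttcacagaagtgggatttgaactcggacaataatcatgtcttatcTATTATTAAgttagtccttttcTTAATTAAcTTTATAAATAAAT
tRNA:Gln-TTG-2-1: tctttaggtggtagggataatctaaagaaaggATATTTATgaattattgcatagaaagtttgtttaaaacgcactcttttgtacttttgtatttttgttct
snRNA:7SKa: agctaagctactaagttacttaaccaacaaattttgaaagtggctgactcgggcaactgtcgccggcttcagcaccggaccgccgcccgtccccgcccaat
snoRNA:Psi18S-525a: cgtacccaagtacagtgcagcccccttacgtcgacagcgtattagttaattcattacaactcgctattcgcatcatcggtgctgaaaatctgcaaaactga
The last pair holds the GA repeat GAGAGAGA or its reverse complement, and here capitals mark GAGAG or CTCTC instead. The first window is chrX:3777378-3777478 at mir-4962 and the second chrX:19485217-19485317 at lncRNA:CR43260.
mir-4962: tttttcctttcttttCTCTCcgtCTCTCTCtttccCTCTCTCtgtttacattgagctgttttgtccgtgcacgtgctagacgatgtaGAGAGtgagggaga
lncRNA:CR43260: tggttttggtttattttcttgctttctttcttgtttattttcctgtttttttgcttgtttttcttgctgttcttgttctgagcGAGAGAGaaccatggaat

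By the type of the nearest noncoding gene, 208 of the 284 peaks lay at lncRNAs and 30 at antisense RNAs. A further 22 lay at tRNA genes, 9 at microRNA hairpins, 4 at snoRNAs, 4 at other noncoding RNAs, 4 at pseudogenes and 3 at snRNAs, and none lay at a ribosomal RNA gene. Of the 3828 annotated noncoding genes, 2548 were lncRNAs, antisense RNAs or other noncoding RNAs. The signal given here is the authors' peak value, whose scale is not stated. It ranged from 2.03 to 1697 with a median of 121.2, against medians of 122.3 at protein-coding starts, 123.8 away from every start and 123.1 over all peaks. With the whole list ordered by signal and divided into 4 equal sets, 70 of the noncoding-start peaks were in the top set and 72 in the bottom set. Within the replicate lists the median was 1.04 times that of all peaks in replicate 1 and 1.03 times in replicate 2. The order relative to all peaks therefore differed between the joint list and the replicate lists.

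**Figure D1:**
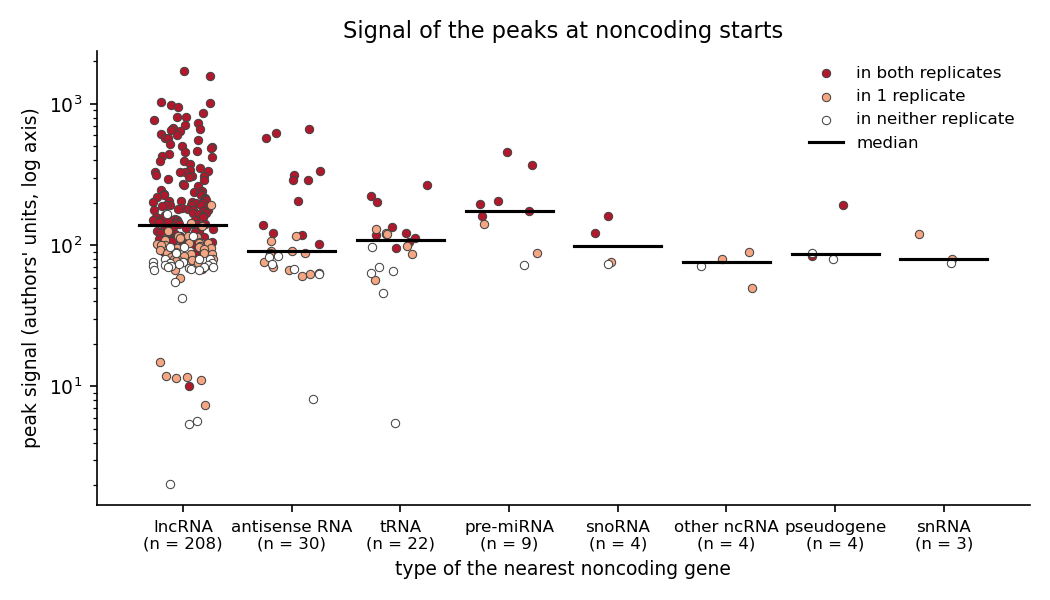
Each point is 1 of the 284 noncoding-start peaks, placed by the type of its nearest noncoding gene (x axis) and its signal in the joint list (y axis, authors' units, log scale). Fill gives the number of replicates with an overlapping peak and the line is the median, which is 137.9 at lncRNAs and 90.6 at antisense RNAs.

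Of the 284 peaks, 165 (58.1%, interval 52.3 to 63.7) overlapped a thresholded peak of each replicate by at least 1 bp, beside 58.8% of all conservative peaks. The share was 56.2% at protein-coding starts and 60.1% away from starts. Of the rest, 26 overlapped a peak of replicate 1 only, 45 a peak of replicate 2 only, and 48 a peak of neither. The 48 are 16.9% of the 284, beside 15.1% of all conservative peaks. Overlap with replicate 1 was 67.3% for the 284 and 67.3% for all peaks. Overlap with replicate 2 was 73.9% and 76.4%, so the higher share in replicate 2 was not particular to these peaks. In the unthresholded ranked lists 283 of the 284 overlapped a peak of replicate 1 and 283 a peak of replicate 2, beside 99.6% and 99.5% of all peaks. All 70 noncoding-start peaks of the top signal set were in both replicates, and so were 61 of 68 in the second, 31 of 74 in the third and 3 of 72 in the bottom set. In the bottom set that is 4.17% (interval 1.43 to 11.5), against 12.7% at protein-coding starts, 13.6% away from starts and 13.0% of all peaks. That set holds every peak with a signal under 30. Of these, 1 of 12 noncoding-start peaks and 183 of 482 over the whole list were in both replicates. The shares without these peaks were not computed. Among the 165 peaks in both replicates the signal in replicate 2 was a median of 1.16 times that in replicate 1, and 109 were higher in replicate 2. The matching ratio and count over all peaks are not given here. The 2 replicate signals had a Spearman rho of 0.857 over these 165 peaks, beside 0.823 over all 5465 such peaks, as a description across peaks. The joint signal was mostly close to the sum of the replicate signals, with a median ratio of 0.998 and a range of 0.0664 to 1.55. The replicate signal is that of the strongest overlapping peak, so a weak call can carry the value of a stronger neighbour.

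**Figure D2:**
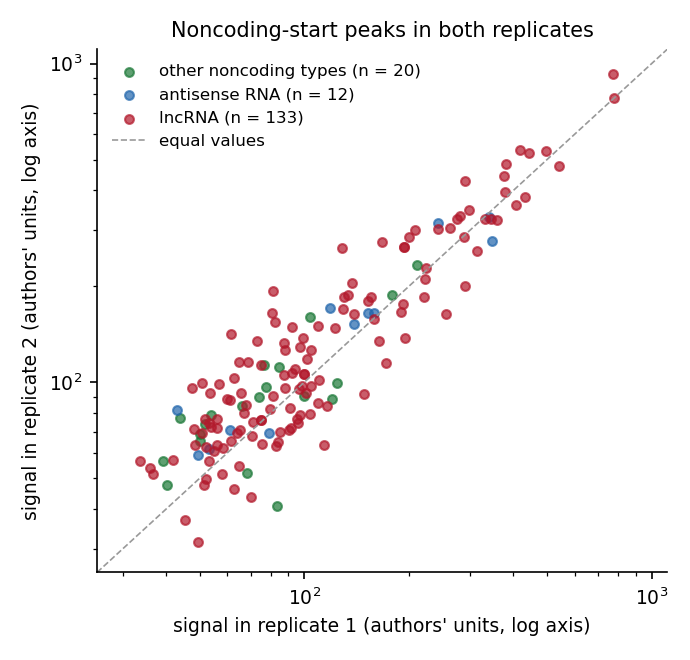
Signal in replicate 1 (x axis) and replicate 2 (y axis) of the 165 noncoding-start peaks found in both, in the authors' units on log axes, coloured by type. Of these, 109 lie above the dashed line of equal values, and 6 differ by more than 2 times.

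**Figure D3:**
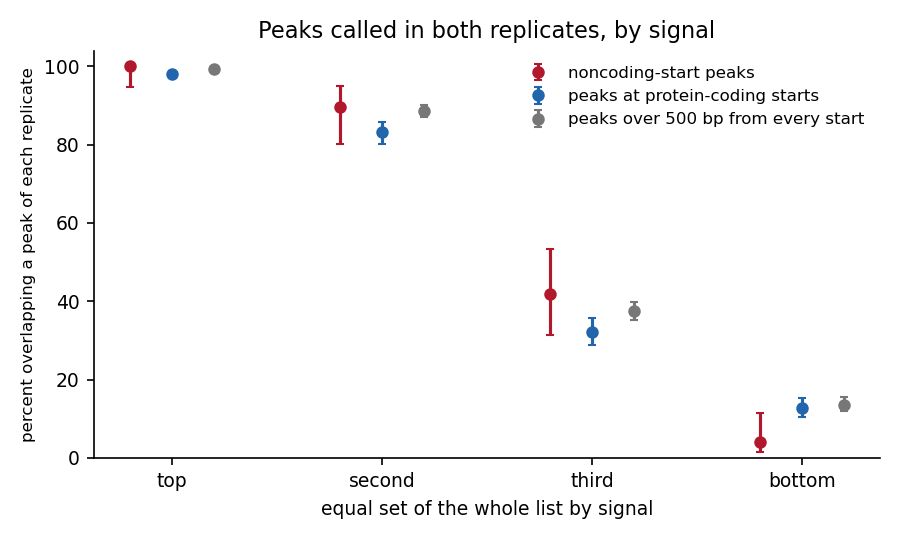
Percent of peaks that overlap a thresholded peak of each replicate (y axis) in each of 4 equal sets of the whole list by signal (x axis). Points are shares and bars Wilson 95% intervals. All 3 classes are near 100% in the top set. The noncoding-start peaks are at 4.17% (3 of 72) in the bottom set, which holds the peaks with a signal under 30.

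Peak shape followed signal. In 198 of the 284 peaks (69.7%) the call was 384 bp wide with the summit at its centre, as in 71.8% of all peaks. These 198 had a median signal of 97.1, and 81 of them (40.9%) were in both replicates. The other 86 had a median signal of 331.3, and 84 of them (97.7%) were in both replicates. Of the 284 peaks, 44 overlapped another conservative peak, and 21 of these overlapped a stronger one. All 12 noncoding-start peaks with a signal under 30 were among the 44, and 1 of the 12 was in both replicates. Over the whole list 473 of 482 peaks under that signal overlapped another peak, and 183 of the 482 were in both replicates.

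Of the 20 highest that were in both replicates, 18 were nearest an lncRNA and 2 an antisense RNA, at 19 genes. Of all 165 in both replicates, 133 (80.6%) were nearest an lncRNA. The signals of the 20 ranged from 598.2 to 1697, and 14 of the 20 summits were upstream of the start. None of the 20 windows held GAGAG, and in 18 the GC content was lower at the summit than in the flanks, as in 139 of the 165 (84.2%). Over all 284 peaks it was lower at 211 (74.3%), beside 77.0% of all peaks of the list and 82.9% away from starts.

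The highest peak, at lncRNA:CR31044 on 3R, had a signal of 773.1 in replicate 1 and 924.6 in replicate 2. It ranked 21 and 14 in those lists and 18 in the joint list. Its summit lay 120 bp upstream of the lncRNA start and 5730 bp from the nearest coding start, that of eEF1gamma, a subunit of a translation elongation factor. The peak at lncRNA:CR44339 on 2R had 781.8 in replicate 1 and 778.8 in replicate 2. It lay 144 bp upstream of the lncRNA, between genes, with the nearest coding start 4229 bp away at Psc, which encodes a Polycomb group protein. lncRNA:CR44651 on 2R had 496.1 in replicate 1 and 532.8 in replicate 2, 360 bp upstream of the start. These peaks were high in both libraries, with joint signals of 1697, 1566 and 1025.

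Other peaks of the 20 are given with the coding gene that holds them or has the nearest start. The summits at lncRNA:CR46036 (957.7) and lncRNA:CR46035 (648.3) both lie inside an intron of osa, which encodes a subunit of the Brahma chromatin remodelling complex. These summits were 2916 bp apart and lay 160 bp and 198 bp upstream of the 2 starts. A weaker peak of 104.3 at lncRNA:CR46036 made osa the coding gene with the most of these peaks inside it, with 3. lncRNA:CR42657 on X (714.0) had its summit 448 bp upstream of its own start and 675 bp from the start of nej, the fly CBP acetyltransferase gene. Replicate 1 gave 289.7 there and replicate 2 gave 426.7. The peak at lncRNA:CR45997 (642.6) had its summit in an intron of mbl, which encodes the splicing factor muscleblind. This peak had 298.4 in replicate 1 and 347.2 in replicate 2. lncRNA:CR44810 (774.4) was nearest slbo, a C/EBP transcription factor gene, at 4521 bp. The summit at lncRNA:CR45541 (666.6) lay 1747 bp from the start of the hexokinase gene Hex-A. That at lncRNA:CR46102 (598.2) lay inside LpR2, a lipophorin receptor gene.

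Of the other lncRNA peaks among these 20, lncRNA:CR44619 on X had a joint signal of 1017 and lncRNA:CR44676 on 3L of 979.1. lncRNA:CR44091 on 3R had 866.5, lncRNA:CR34335 on X had 813.8, lncRNA:CR45352 on 2L had 811.0 and lncRNA:CR45645 on 3R had 613.0. lncRNA:CR45251 on 3L had a pair of high peaks at the same start, 1 on each side. The one 324 bp upstream had a signal of 736.8, with 408.0 in replicate 1 and 360.7 in replicate 2. The one 330 bp downstream had 677.0, with 359.8 and 323.7. Over all 284 peaks the nearest gene had 1 peak at 223 genes, 2 peaks at 26 genes and 3 peaks at 3 genes, lncRNA:CR46006, lncRNA:CR43626 and lncRNA:CR43334.

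The 30 antisense-RNA peaks had a median signal of 90.6 against 137.9 at lncRNAs, and 12 (40.0%, interval 24.6 to 57.7) were in both replicates, against 133 of 208 (63.9%, interval 57.2 to 70.2) at lncRNAs. These intervals overlap in part. The highest was asRNA:CR45999 on 3R, 251 bp upstream, with 340.5 in replicate 1 and 329.5 in replicate 2. asRNA:CR44429 on X had 347.5 in replicate 1 and 278.1 in replicate 2. Its summit lay in an intron of gce, which encodes a juvenile hormone receptor, 522 bp from a gce start and just past the 500 bp limit of the rule. The summit at asRNA:CR46145 (569.4) lies inside FER, a tyrosine kinase gene, 663 bp from the FER start. Of the 30 summits, 23 lay inside a protein-coding gene, against 50 of the 208 at lncRNAs. Antisense RNAs are named for lying opposite a coding gene, so this contrast depends on how the types are named.

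At tRNA genes the peaks were of moderate height. The 22 tRNA peaks had a median signal of 109.0, between 5.54 and 268.3, and 10 of them (45.5%, interval 26.9 to 65.3) were in both replicates. The highest stood at tRNA:Gln-TTG-2-1 on X, with 103.8 in replicate 1 and 160.0 in replicate 2. Its summit lay 219 bp upstream of the tRNA. tRNA:Phe-GAA-1-6 followed with 124.2 and 99.1, 442 bp upstream. Next was tRNA:Lys-TTT-1-1 with 84.4 and 111.7, the summit 324 bp downstream in an intron of the kinase gene Btk. Within 500 bp of these 22 peaks lay the starts of 31 tRNA genes. A peak at tRNA:Cys-GCA-1-3 lay within 500 bp of 4 noncoding genes. The tRNA genes tRNA:Ser-AGA-2-4, tRNA:Cys-GCA-1-3 and tRNA:Ile-TAT-1-1 each had 2 peaks, and at tRNA:Ile-TAT-1-1 these had signals of 65.5 and 5.54, with neither in a replicate list. The 6 letters GTTCGA, the core of the internal B box, were in 1 of the 22 tRNA windows and in 9 of all 284 (3.17%), beside 3.61% at protein-coding starts.

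The 9 microRNA peaks had a median signal of 175.0, and 6 of them were in both replicates. The highest, at mir-9377 in an intron of Tis11, had 211.7 in replicate 1 and 233.5 in replicate 2, 390 bp downstream of the start of the annotated mature RNA. For 4 of the 9 peaks the nearest entry was such a mature RNA, and for the others a hairpin. mir-2491 had 179.4 and 187.4, and mir-275 had 120.4 and 88.8. The 4 snoRNA peaks were led by snoRNA:Or-CD13 with 65.9 in replicate 1 and 84.1 in replicate 2, in an intron of egr, the fly tumour necrosis factor gene, and by snoRNA:Psi18S-176 with 43.8 and 77.5. Of the 4 pseudogene peaks, CR42490 had 99.8 and 90.4 and CR45391 had 40.2 and 47.7. None of the 3 snRNA peaks and none of the 4 at other noncoding RNAs was in both replicates.

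Well-studied noncoding RNAs were looked up by name. Of 58 listed names 3 were not found in the annotation. The others matched 75 genes, and 7 of the 75 (9.33%) had a noncoding-start peak, beside 276 of all 3828 noncoding genes (7.21%). lncRNA:flam is the precursor of the flamenco piRNAs, which silence transposons in ovarian follicle cells. Its peak had 50.6 in replicate 1 and 99.1 in replicate 2, 196 bp upstream of its start. The other 6 were not in both replicates. mir-ban, the growth-promoting bantam microRNA, had 85.5 in replicate 2 alone, and mir-14, which limits cell death, had 56.8 in replicate 2 alone. snRNA:7SKa, whose RNA holds back the elongation kinase P-TEFb, had 81.6 in replicate 2 alone and snRNA:U2:34ABb had 40.8 in replicate 2 alone. snRNA:U5:63BC and mir-11, which lies inside the cell cycle gene E2f1, were in neither. Uhg4 and snRNA:U5:35D had a peak only at a protein-coding start nearby. No summit of either kind lay within 500 bp of a start of roX1 or roX2, the dosage compensation RNAs, of the stress RNA Hsromega, or of the 4 listed RNAs of the bithorax complex.

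Counted by gene, 416 of 3828 noncoding genes (10.9%) had a peak summit no further than 500 bp from a start, as did 2980 of 13968 protein-coding genes (21.3%). Of the 416, 269 had noncoding-start peaks only, 140 (33.7%) had peaks only where a protein-coding start was also within 500 bp, and 7 had both. By summit, 148 of the 432 peaks within 500 bp of a noncoding start (34.3%) also lay at a protein-coding start. By type, 224 of 327 lncRNA or other noncoding RNA genes with a summit had a noncoding-start peak, as did 31 of 45 tRNA genes and 9 of 10 microRNA hairpins, and no difference between types was tested. Of 16 snoRNA genes with a summit 4 did, and the other 12 were reached only through a protein-coding start. Over all genes of a type, a noncoding-start peak was at 8.79% of lncRNA or other noncoding RNA genes and 10.7% of tRNA genes. The share was 3.46% of microRNA hairpins and 1.49% of snoRNA genes, against 7.21% of all noncoding genes. Noncoding genes whose starts were all over 500 bp from every coding start had such a peak in 259 of 3215 cases (8.06%). None of 99 ribosomal RNA genes had one. How reliably reads can be placed in repeated genes was not measured, and tRNA, snRNA and ribosomal RNA genes have near-identical copies.

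Relative to the sequence available, the peaks were denser than away from starts and less dense than at coding starts. Sequence within 500 bp of a noncoding start only came to 2.81 Mb, 2.10% of the arms, and held 101.1 peaks per Mb. Coding-start sequence held 191.5 and the remaining sequence 52.5 peaks per Mb. The ratio to the remaining sequence was 1.99 ± 0.173 for noncoding starts and 3.81 ± 0.652 for coding starts in the replicate lists (SD, n = 2). On X there were 33 of the peaks (11.6%), and X held 13.3% of the noncoding-only sequence. X held 18.7% of the coding-start peaks on 16.9% of that sequence, and 20.5% of the peaks away from starts on 17.8%. By arm the density at noncoding starts ran from 79.9 peaks per Mb on 3R and 88.0 on X to 102.5 on 2R, 110.2 on 2L and 125.6 on 3L. Chromosome 4 had no such peak in 0.0296 Mb. With 33 peaks on X the difference in density was not tested.

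Summits lay mostly upstream of the noncoding start, and most often within 250 bp of it on that side (39.1%). Of the 284 summits, 168 (59.2%, interval 53.4 to 64.7) were upstream, with a median position of -78.5 bp, against 67.7% and -107 bp at protein-coding starts. The replicate lists gave 58.0% ± 1.55 (SD, n = 2). Within 250 bp of the start lay 57.0% of the noncoding-start summits (interval 51.2 to 62.7), against 73.8% at protein-coding starts. From 251 to 500 bp downstream lay 22.9% (interval 18.4 to 28.1), against 8.24%. The 198 peaks of fixed width had 58.1% of summits upstream and 59.6% within 250 bp (interval 52.6 to 66.2). The 86 peaks of other widths had 61.6% upstream and 51.2% within 250 bp (interval 40.8 to 61.4). Coding-start peaks of other widths had 82.2% upstream (interval 79.4 to 84.7) and 67.8% within 250 bp. Annotated starts of lncRNAs, hairpins and snoRNAs can differ from the sites where transcription begins, and their part in these positions was not tested.

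**Figure D4:**
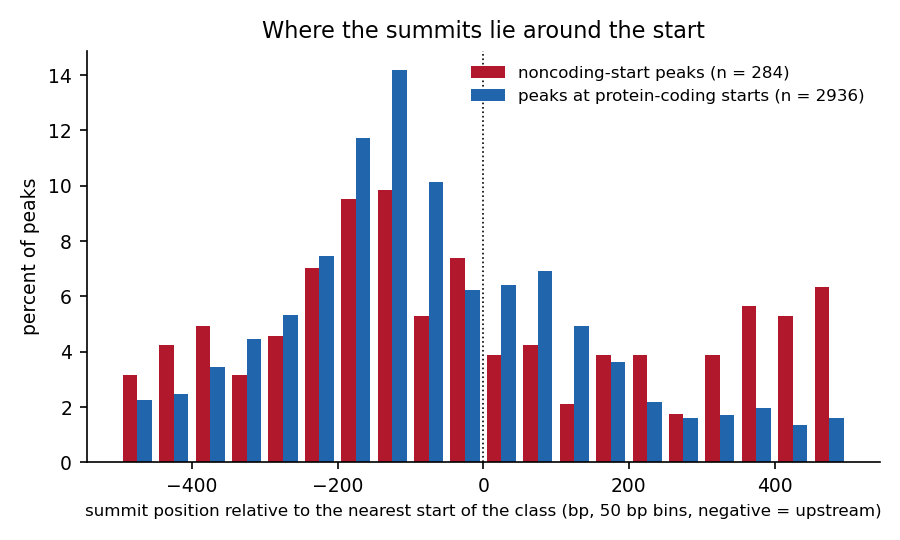
Position of the summit relative to the nearest noncoding start, or the nearest protein-coding start (x axis, bp, 50 bp bins, negative is upstream), as percent of the peaks of each class (y axis). Both classes are highest between -200 and -100 bp, and from 251 bp downstream on the noncoding-start peaks hold 22.9% against 8.24%.

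Most of these peaks lay outside protein-coding genes. Intergenic sequence held 109, exons of noncoding genes 87, introns of coding genes 61 and introns of noncoding genes 14. The 3′ untranslated regions held 8, coding sequence 3 and 5′ untranslated regions 2. Inside a protein-coding gene lay 95 (33.5%, interval 28.2 to 39.1). The share was 61.2% of coding-start peaks, 73.9% of peaks away from starts and 68.7% of all peaks. Of the 95, the noncoding gene ran antisense to its host at 67 and in the same sense at 27, and at 1 there were hosts on both strands. The rule asks for an annotated noncoding start, so the place of these peaks depends on where such genes are annotated. The shares of all noncoding starts inside coding genes, and on either strand of a host, were not computed. The nearest coding start was 501 to 1000 bp away at 50 peaks, 1001 to 2000 bp at 55, 2001 to 5000 bp at 85, 5001 to 10000 bp at 45, and over 10000 bp at 49.

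The summits were A/T-rich against their own flanks. The mean GC content of the 101 bp at the summit was 34.0%, and that of windows of the same size 300 bp to each side was 44.7%, a fall of 10.7 percentage points (SD over peaks 14.0, n = 284). The fall was 6.64 points at protein-coding starts, 12.2 away from starts and 10.4 over all peaks. In the replicate lists it was 13.8 in replicate 1 and 9.15 in replicate 2, 11.5 ± 3.26 (SD, n = 2). The flanks stood above the sequence further out, since the profile was at 42.7% and 41.1% at 1000 bp to each side of noncoding-start summits. At coding-start summits it was 43.5% and 43.4% there, close to their flanks of 43.1%. A/T runs of at least 8 bases were in 74.6% of noncoding-start windows (interval 69.3 to 79.4), against 69.0% at coding starts and 78.8% away from starts. They took 17.5 bases of the window on average, against 7.49 in the flanks.

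**Figure D5:**
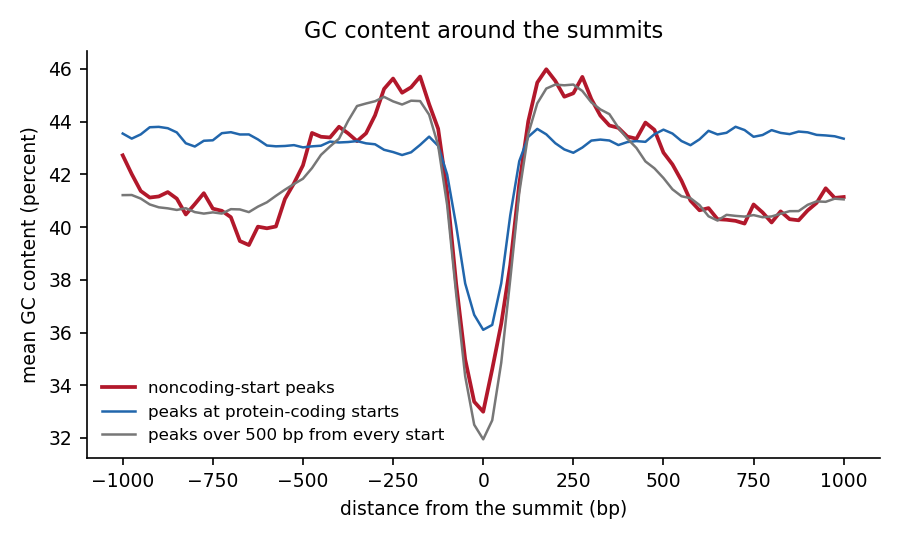
Mean GC content (y axis, percent) by distance from the summit (x axis, bp) for each class of peaks. The noncoding-start curve falls to 33.0% at the summit, close to the 31.9% of peaks away from every start and under the 36.1% of coding-start peaks.

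The mean fall in GC was smaller in sets of lower signal and varied among the RNA types, which was not tested. It was 16.6 points in the top signal set, 13.9 in the second, 9.05 in the third and 3.62 in the bottom set, and at coding starts it was 15.0, 8.16, 3.80 and -0.414. At the 208 lncRNA peaks it was 13.4 points (SD 13.0) and at the 30 antisense-RNA peaks 6.01 (SD 15.5). At tRNA genes it was 0.518 (SD 13.7, n = 22) and at microRNA hairpins 3.19 (SD 14.6, n = 9). At the 3 snRNA peaks the mean was -10.1 points, with the summit higher in GC than the flanks at 2 of the 3 and lower by 2.97 points at snRNA:U5:63BC. The median signals of these types were 137.9 at lncRNAs, 90.6 at antisense RNAs, 109.0 at tRNA genes, 175.0 at microRNAs and 79.9 at snRNAs. How far the falls of the types go with their signals was not tested. The fall was 3.78 points at the 50 peaks whose nearest coding start was 501 to 1000 bp away, and between 10.5 and 14.7 in the groups further out. Within the 20 highest peaks the fall ranged from -5.45 to 31.2 points. lncRNA:CR31044, the highest, had a fall of 2.48 points, with 40.6% GC at its summit, the highest GC content of the 20, while lncRNA:CR46036 had 18.8% GC and a fall of 29.7 points.

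Short motifs were searched on both strands in the 101 bp at each summit, and matches are descriptions of sequence, not of bound factors. GAGAG, the core of the GAGA factor site, was in 34 of 284 windows (interval 8.69% to 16.3%), against 16.8% at coding starts, 10.4% away from starts and 12.5% of all peaks. In windows 1000 bp from the same summits it was in 10.7%. It was in 14 of 72 windows of the bottom signal set and in 3 of 70 of the top set, and in 4.65% of the 86 windows of peaks of other widths. The longer repeat GAGAGAGA, which overlaps GAGAG, was in 4 windows, 2 of them in the peaks printed above. TATAAA was in 68 windows (23.9%, interval 19.3 to 29.2), against 19.5% at coding starts, 23.3% away from starts and 12.1% at 1000 bp from the same summits. Because TATAAA is A/T-rich, its share moves with GC content, and that was not separated here. AAAAAAAA was in 11.3% of windows, against 11.8% at coding starts and 13.1% away from starts. CAGTGC was in 21 windows (7.39%, interval 4.89 to 11.0), against 5.25% at coding starts, 5.35% away from starts and 3.70% at 1000 bp. GGTCACACT, known as motif 1 of fly core promoters, was in 0 of 284 windows (interval 0 to 1.33) and in 0.579% at coding starts.

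The limits of the rule cut through continuous distances. The members furthest from their noncoding start were lncRNA:CR44730 at 498 bp, lncRNA:CR44363 at 496 bp and lncRNA:CR44608 at 485 bp. Just outside were summits 502 bp from lncRNA:CR45292, 508 bp from lncRNA:CR44953 and 509 bp from asRNA:CR45028. On the coding side, snRNA:U2:34ABb was kept with kek4 502 bp away, and lncRNA:CR45438 and snoRNA:Me28S-A1322 with HDAC1 and eEF1alpha1 503 bp away. Left out were summits 491 bp from Ypel and 488 bp from the actin gene Act5C. At Act5C the rule divided a pair of peaks near lncRNA:CR45668, keeping one with a signal of 552.0, 695 bp from the actin start, and leaving out one of 45.4. In all, 12 members had a coding start 501 to 600 bp away and 54 a noncoding start 401 to 500 bp away. With both windows at 250 bp the rule gave 185 peaks, and among peaks with a global IDR of 0.001 or less it gave 165.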

How the data were processed

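Chromatin sheared by sonication to 200 to 800 bp was precipitated with anti-GFP in 2 biological replicates, per the labels. The peak lists use dm6, per the labels. An aligner or peak caller is not given in the sources used here. The authors deposited peaks of each replicate and of both together, either ranked or thresholded by irreproducible discovery rate (IDR). Each peak's signal is the authors' deposited value on a scale not stated. Global IDR is deposited as −log10 in the ranked lists and was at least 2 in the conservative peaks. The summit offset is the deposited column of that kind. Another 16 unnamed columns of per-replicate values in the joint ranked lists were not used. Depth is unknown, since the files hold peaks only.

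Coordinates are 1-based on Release 6. Starts came from the Ensembl release 115 annotation without transposable elements, and sequences from RefSeq's Release 6 genome. Mature microRNA entries were counted as their hairpin. The nearest noncoding gene gave each peak its type. Overlap with a replicate meant at least 1 bp with a thresholded peak. GC and motifs were read from 50 bp to each side of the summit, and flanks were centred 300 bp away. Named genes are those of the 20 highest peaks in both replicates, the 3 highest of each type, the listed well-studied RNAs, and the peaks nearest the limits of the rule. The coding gene with most peaks, the genes with 2 or 3 peaks, A/T runs, the signal limit of 30, and the sequences at 7SKa and with GA repeats were chosen after their values were seen. The peaks and lists were chosen with earlier results of these data known. Alternatives were other lists, each replicate alone, other windows and other peak sets. Tools were matplotlib 3.10.9, pandas 2.3.3 and numpy 2.4.6 under Python 3.11.15. The code was tested on simulated data, where 2000 of 2000 planted peaks got the class, distances and overlaps of a direct search.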

Additional observations from a re-analysis of the deposited data

How the results depend on the processing

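The 9 results were recomputed under 13 alternatives, of which leaving out the peaks of 384 bp with a central summit and keeping only peaks in both replicates were chosen after seeing the data. Of 82 values, 51 stayed within 1.5 times (counts), within 1 SD of the replicates, or, for the share in both replicates, within its Wilson interval, 26 moved and 5 turned round. The median signal relative to all peaks, 0.985, was 1.02 at a global IDR of 0.001 or less, 1.06 with starts within 1000 bp, 1.01 with overlapping peaks reduced to the highest, and 1.03 to 1.04 with a replicate left out. It was 0.993 in the less strict list and 0.949 with starts within 250 bp, so no direction holds for it. The number of peaks was 165 at the stricter IDR and 185 within 250 bp, and the number of genes 166 at the stricter IDR. Without a replicate these were 203 to 260 peaks and 199 to 261 genes. The share of all peaks was 1.99% within 250 bp and 4.23% within 1000 bp, and 3.04% to 3.17% without a replicate. The share in both replicates was 51.5% in the less strict list, 90.3% at the stricter IDR and 97.7% without the peaks of fixed width. It has no value with a replicate left out. The upstream share was 66.5% within 250 bp, 52.7% within 1000 bp, 61.6% without the peaks of fixed width and 56.9% to 59.1% without a replicate. The share inside a coding gene was 36.2% within 250 bp, 30.9% for peaks in both replicates and 32.0% to 35.0% without a replicate. The GC fall was 14.8 points at the stricter IDR, 15.5 without the peaks of fixed width, 14.5 for peaks in both replicates and 9.15 to 13.8 without a replicate. The GAGAG share was 14.5% in the less strict list, 7.88% at the stricter IDR, 23.9% with 100 bp to each side, 4.65% without the peaks of fixed width, 9.70% for peaks in both replicates and 11.3% to 14.2% without a replicate. The causes were not tested. No paired analysis was possible because the series holds 1 group. Depth cannot be read from the peak lists, so what it limits is unknown.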
